A study of Mus musculus with 4 samples.

Results

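The glucocorticoid receptor (GR) binding data were examined at the genes of the tumour necrosis factor (TNF) superfamily and of the NF-kappaB pathway. A gene was a member when its name in a deposited table began with Tnf, with Traf or Birc and a digit, or with Ikbk, or was Nfkb1, Nfkb2, Rel, Rela or Relb. By this rule 19 genes with 22 peaks were found among the 6080 genes and 10402 peaks of the PDGFRa+ list, and 0 among the 30 genes of the CD137+ table. The RefSeq gene table (GRCm38.p6) holds 64 protein-coding genes with such names, so 45 of them were the nearest gene of no peak. The names reach beyond the superfamily itself, since Tnfaip genes are named for induction by TNF and Traf3ip genes for binding to a TRAF adaptor.

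GR was immunoprecipitated from adipose progenitors of C57BL/6 mice that carried either CD137 or PDGFRa (CD140) on their surface. Both cell types were sorted magnetically out of tissue given as SAT or VAT, exposed to an adipogenic cocktail and given dexamethasone, a synthetic glucocorticoid, at 1 µM. The 4 libraries were 1 GR immunoprecipitate and 1 input per cell type, with no replicate, no untreated control and unknown read depth. The labels do not say which tissue gave which cells or how many animals were pooled, and a protocol line on embryonic cells goes against the adipose source. With 1 library per cell type no test between them was possible. Chromatin data give no expression, so the cell type labels could not be checked against markers.

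TNF superfamily ligands are mostly trimeric membrane proteins that cluster their receptors on a neighbouring cell. The receptors recruit TRAF adaptors and BIRC ubiquitin ligases, which activate the IkappaB kinases. These kinases release dimers of the NF-kappaB subunits, which switch on inflammatory and survival genes, among them inhibitors such as Tnfaip3 that end the signal. Ligand-bound GR is known to repress much of this output, partly by contact with NF-kappaB, and in fat tissue TNF is known to oppose adipocyte differentiation. CD137, the surface marker of one of the cell types, is itself a TNF receptor superfamily member encoded by Tnfrsf9.

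Promoter sequences from RefSeq (GRCm38.p6), 300 bases from 250 before the start site onwards, are shown for the genes that bear most directly on the family. Fas is shown because it was the one gene of the family or of the wider pathway list whose peak lay over such a window. The capitals mark the 129 bases of the window under the peak, which reaches beyond the window's end. Tnfaip3 is shown as the one member with a peak that had both motifs searched, though at different start sites, and Tnfrsf9 as the gene of the sorting marker. In both of these the capitals mark matches to the kappaB consensus, the motif of NF-kappaB. The windows are chr19:34290409-34290708 on the plus strand for Fas, chr10:19015361-19015660 on the minus strand for Tnfaip3 and chr4:150927749-150928048 on the plus strand for a Tnfrsf9 start site.
Fas promoter: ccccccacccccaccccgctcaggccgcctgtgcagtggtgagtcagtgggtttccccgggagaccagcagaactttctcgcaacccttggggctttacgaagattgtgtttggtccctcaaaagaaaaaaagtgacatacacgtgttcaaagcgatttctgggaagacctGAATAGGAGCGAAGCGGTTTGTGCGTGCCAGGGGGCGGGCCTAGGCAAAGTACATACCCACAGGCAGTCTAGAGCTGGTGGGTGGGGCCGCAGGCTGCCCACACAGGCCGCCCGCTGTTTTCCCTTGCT
Tnfaip3 promoter: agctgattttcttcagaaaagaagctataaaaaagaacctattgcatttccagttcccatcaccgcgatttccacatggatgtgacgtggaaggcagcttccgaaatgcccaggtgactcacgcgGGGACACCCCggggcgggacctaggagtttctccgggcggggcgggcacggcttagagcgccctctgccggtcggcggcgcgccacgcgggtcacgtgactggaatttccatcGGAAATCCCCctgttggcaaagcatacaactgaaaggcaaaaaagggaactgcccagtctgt
Tnfrsf9 promoter: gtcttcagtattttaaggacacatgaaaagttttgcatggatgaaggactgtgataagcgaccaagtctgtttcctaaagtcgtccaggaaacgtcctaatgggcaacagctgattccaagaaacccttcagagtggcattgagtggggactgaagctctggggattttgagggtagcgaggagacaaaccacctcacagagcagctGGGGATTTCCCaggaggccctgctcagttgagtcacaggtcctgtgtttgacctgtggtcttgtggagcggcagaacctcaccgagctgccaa

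In the Tnfaip3 window shown the kappaB matches lay 125 to 116 and 12 to 3 bases before the start site. In the Tnfrsf9 window shown overlapping matches lay 43 to 33 bases before it. Each gene has another window, at another start site, that held no kappaB match and is not shown. These are chr10:19011914-19012213 for Tnfaip3 and chr4:150919905-150920204 for Tnfrsf9. The kappaB consensus was searched on both strands, and overlapping or palindromic matches were taken as 1 stretch. It was present in 12 of the 63 promoter windows found for 52 of the 64 family genes (19.0%, 95% Wilson interval 11.2 to 30.4), beside 8.46% of all 32851 windows of that length. Of the windows of members with a peak it was in 2 of 15, those of Tnfaip3 and Tnfrsf8, and of the windows of family genes without a peak in 10 of 48. The full palindromic GR element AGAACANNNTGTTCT, with no mismatch allowed, was in 0 of the 63 family windows. In all windows it was in 3, too few for the 0 to say anything about the family. Its hexamer AGAACA, on either strand, was in 5 family windows (7.94%, 3.44 to 17.3) and in 19.0% of all windows. Among members with a peak it stood only in a window of a second Tnfaip3 start site, 11 to 6 bases before that start. The Fas window shown held 0 matches to the kappaB consensus, the full element or the hexamer. The part of the Fas peak beyond that window was not searched. Windows of neighbouring start sites of a gene overlap, so they are not independent. A match of letters is no site of binding, and the peaks other than that of Fas lay outside the windows of their listed start sites.

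GR peaks named 19 of the 64 family genes, 29.7% (95% Wilson interval 19.9 to 41.8), beside 22.5% of all 21887 protein-coding genes with at least 1 peak. The background lay inside the interval, so the share at any distance is not a result about the family. Of the ligand genes 4 of 13 had a peak, of the receptor genes 6 of 20, of the NF-kappaB subunits 2 of 5 and of the TNF-induced protein genes 3 of 8. The TRAF adaptors had 1 of 7, the BIRC genes 1 of 5, and the IkappaB kinase genes and the TRAF-interacting protein genes 1 of 3 each. Every interval by role contained the background share. Intervals cover counting error only.

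**Figure D1:**
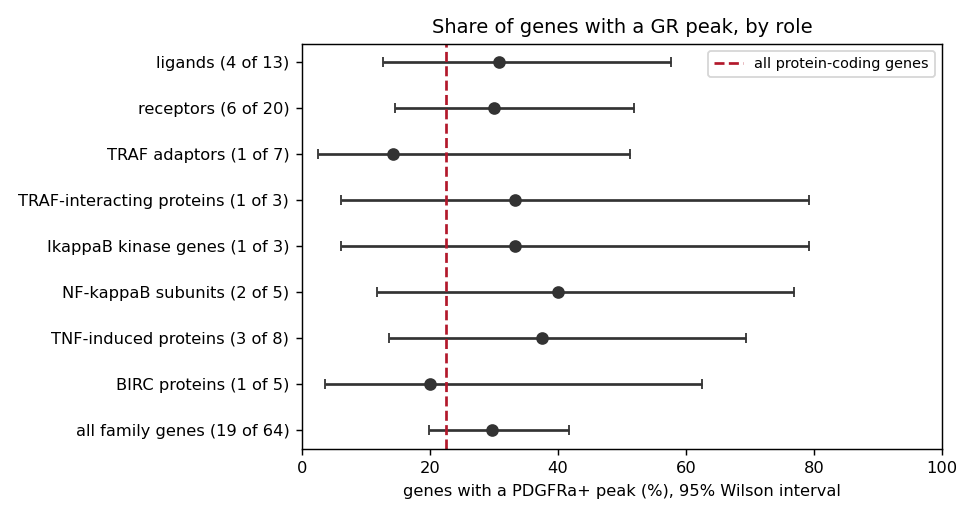
Percent of genes of each role with at least 1 PDGFRa+ peak at any distance (points) with 95% Wilson intervals (bars), and the percent of all protein-coding genes, 22.5% (dashed line). The intervals of all 8 roles and of the 64 genes together cross the line.

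Taken over all scores, the peaks of the family had a shorter median distance to start sites than those of the list, and 1 of them was a promoter peak. All 22 lay within 100 kb of the start site (lower bound of the 95% Wilson interval 85.1%), beside 66.4% of the 10402 peaks of the list. By gene these were the same 19 (29.7%, 95% Wilson interval 19.9 to 41.8), beside 19.8% of all protein-coding genes with a peak at that range. That background lay just below the interval, while the 22.5% at any distance lay inside it. The median distance of the 22 peaks was 22200 bp (95% order-statistic interval 11997 to 44375), beside 47254.5 bp in the list. Among peaks with a score of 40 or more the family's 9 had a median of 37198 bp (15543 to 50858), and that of the list, 48237 bp, lay within this interval. The 3 family peaks with a score of 50 or more had a median of 44375 bp, beside 52628 bp. Within 20 kb lay 11 of the 22, from 15.6% of the family genes beside 11.2% of all protein-coding genes, and within 3 kb lay 3, those of Rela, Nfkb1 and Tnfsf13b. Upstream of the start stood 14 of 22 (63.6%, 43.0 to 80.3), beside 44.0% of the list. Counted by gene, 4.69% of the family (1.61 to 12.9) had a peak within 3 kb, beside 3.39% of all protein-coding genes.

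**Figure D2:**
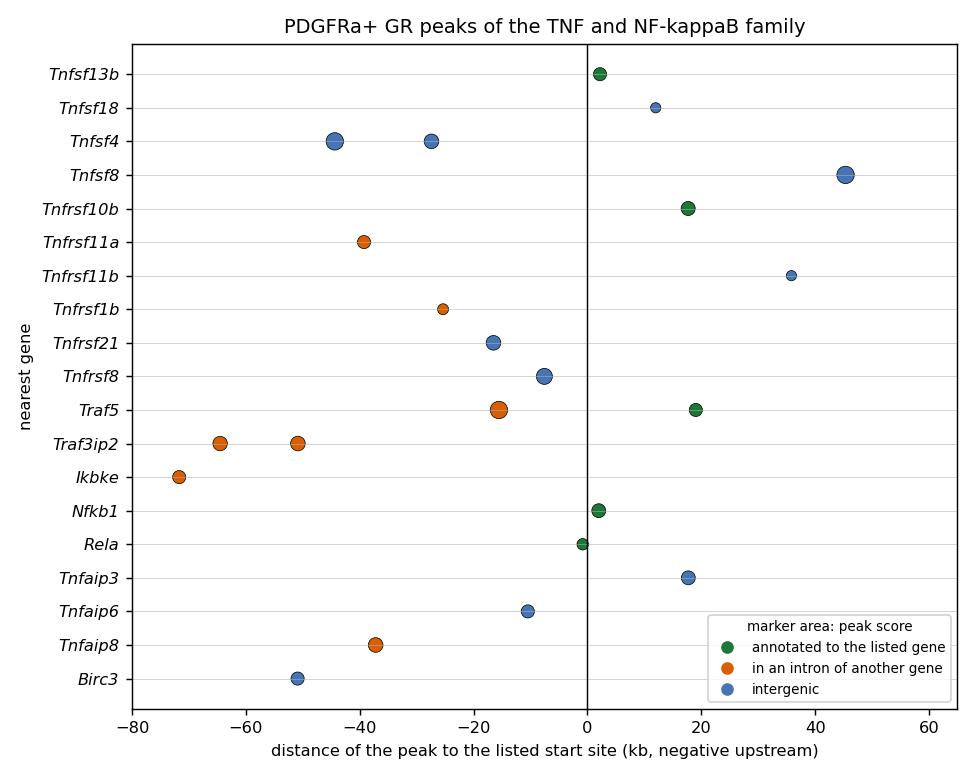
Signed distance of each of the 22 PDGFRa+ peaks to the start site of its listed gene in kb (horizontal axis), by gene in the order of roles (vertical axis), with the marker area proportional to the authors' score. Green markers are annotated to the listed gene (intron, promoter or transcription end), orange ones in an intron of another gene and blue ones between genes, and the 3 nearest to 0 are Rela, Nfkb1 and Tnfsf13b.

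Scores are the authors' own per peak, on a scale they do not state, and positions are the list's own, on another build than GRCm38. Among the ligands, Tnfsf4 had 2 peaks, and Tnfsf8, Tnfsf18 and Tnfsf13b 1 each. Tnfsf4, the ligand of OX40 that costimulates T cells, had intergenic peaks 44375 and 27388 bp upstream with scores of 58 and 41 (chromosome 1, 163281117 to 163281271 and 163298109 to 163298254 as deposited). Both stood in LTR repeats, ERVL-int and RMER19B. Tnfsf8, the ligand of the receptor encoded by Tnfrsf8, had a peak with a score of 58 in a LINE element, 45346 bp downstream of its start and 15039 bp beyond the length of the gene (chromosome 4, 63476885 to 63477060). The score of 58 was the highest of the family, shared by Tnfsf4, Tnfsf8 and Traf5, and 7.47% of the list scored as high or higher. All 3 of these peaks lay in repeats.

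Tnfsf18, the ligand of the receptor GITR, stood at the other end, with the lowest score of the list, 20, at 11997 bp (chromosome 1, 163436713 to 163436858). Tnfsf13b encodes BAFF, a survival factor of B cells. Its peak was the one ligand peak inside the listed gene, in intron 2 of 6, 2212 bp from the start, with a score of 33 (chromosome 8, 10008773 to 10008918). The ligands thus ranged over the whole span of the family's scores. Tnf itself was the nearest gene of no peak, and the nearest genes with one lay 80809 bp (Ly6g5b) and 315042 bp (Cchcr1) away on the gene table.

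The genes Tnfsf4 and Tnfsf18 neighbour Fasl, the ligand of Fas, which belongs to the superfamily but not to the naming rule. Their start sites lay 99219 bp apart both as implied by the list and in GRCm38. The 4 peaks of the 3 genes spanned 291315 bp, and from 60 kb before to 410 kb after the Tnfsf4 start these were the only peaks of the list. The Fasl peak scored 41 and lay 146117 bp downstream of its start, in a LINE element. None of the 4 lay inside a gene.

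**Figure D3:**
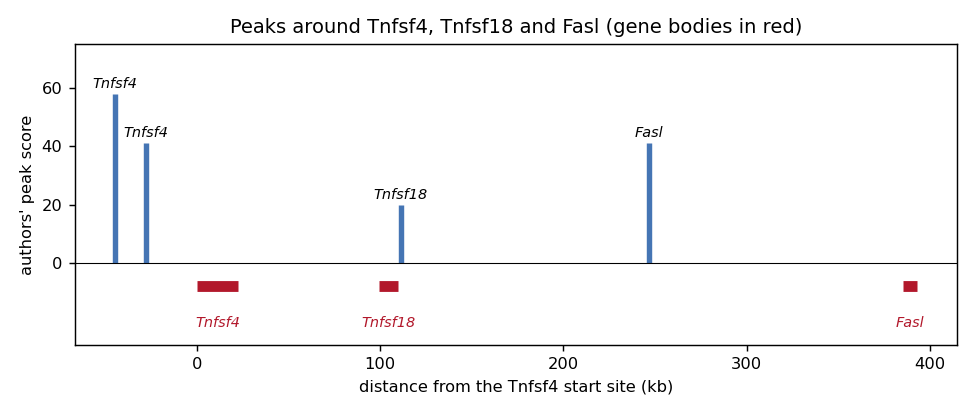
Authors' score (vertical axis) of every PDGFRa+ peak around Tnfsf4, Tnfsf18 and Fasl by distance from the Tnfsf4 start site in kb (horizontal axis), with each peak labelled by its listed gene and the gene bodies of GRCm38 drawn in red. The Tnfsf4 peaks score 58 and 41, that of Tnfsf18 scores 20 and that of Fasl 41, and all stand outside the red bars.

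Of the receptors, 6 had 1 peak each, and their scores ran from 20 to 49. Tnfrsf8, which encodes CD30, had the highest, 49, at an intergenic SINE element 7559 bp upstream (chromosome 4, 144912537 to 144912682). Tnfrsf1b, the second receptor of TNF, was listed with a score of 23 at 25358 bp upstream (chromosome 4, 144861997 to 144862266), but that peak lay in intron 12 of 12 of Tnfrsf8. The peaks of this neighbouring pair were 50478 bp apart, 1 upstream of Tnfrsf8 and the other inside it. Tnfrsf21, a receptor with a death domain, had an intergenic peak of score 41, 16498 bp upstream and outside repeats.

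Tnfrsf10b, the mouse receptor of the ligand TRAIL, was the one receptor gene whose listed peak was annotated to it. The peak was annotated to the transcription end, 17699 bp from the start and 759 bp beyond the gene's length, with a score of 38 (chromosome 14, 70184906 to 70185051). Tnfrsf11a encodes RANK, the receptor that drives osteoclast formation. Its peak of score 33 lay 39238 bp upstream in intron 23 of 27 of Relch. Tnfrsf11b encodes osteoprotegerin, the decoy that binds the ligand of RANK. Its peak, with the lowest score of 20, stood 35838 bp from the start and 7972 bp beyond the gene's length. Tnfsf11, the ligand of both, had no peak. Tnfrsf1a, the main receptor of TNF, was also the nearest gene of none.

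Tnfrsf9, the gene of CD137, was the nearest gene of no PDGFRa+ peak and was not among the 30 genes of the CD137+ table. On the gene table the nearest genes with a PDGFRa+ peak were Slc45a1, 267979 bp away, and Dnajc11, 987616 bp away on the other side. That table holds genes with an interval only, and absence from it does not show that GR was absent. The family gene nearest to an entry of that table was Tnfsf13, with its readthrough gene Tnfsfm13, 572617 bp from Per1 (mm10). None of the 46 genes of the pathway list was in the CD137+ table either.

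Behind the receptors, Traf5 was the one TRAF adaptor of 7 with a peak. One of its peaks, with a score of 33 and a width of 350 bp, lay in intron 1 of 9 of Traf5 itself, 19042 bp from the start (chromosome 1, 193897264 to 193897613). The other, with a score of 58, lay 15543 bp upstream in intron 9 of 9 of Rcor3, at a simple repeat. Traf1, Traf2, Traf3, Traf4, Traf6 and Traf7 had none. Traf3ip2 encodes Act1, the adaptor of the interleukin 17 receptor, and had peaks of scores 40 and 41 that lay 13661 bp apart, 64519 and 50858 bp upstream. The former was in intron 11 of 12 of Fyn, a Src family kinase gene, and the latter in intron 2 of 5 of the noncoding Gm16364.

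Of the IkappaB kinase genes, Ikbke had a peak of score 33, 71708 bp upstream in intron 7 of 22 of Srgap2, the farthest of the family. Ikbkb and Ikbkg, the catalytic and the regulatory subunit of the classical kinase complex, had none. Birc3, a ubiquitin ligase that acts at TNF receptors, had an intergenic peak of score 33, 50907 bp upstream in a SINE element. Birc2, Birc5, Birc6 and Birc7 had none. Neither the Ikbke nor the Birc3 peak lay inside the gene it was listed under.

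The NF-kappaB subunits had the peaks closest to start sites. Rela, which encodes the main transactivating subunit, had the family's one promoter peak, 830 bp upstream, with a score of 25 and a width of 356 bp (chromosome 19, 5636483 to 5636838 as deposited). That score was low in the list, of which 98.2% scored as high or higher. Nfkb1, which encodes the precursor of the DNA-binding subunit, had a peak of score 37 in intron 1 of 24, 1992 bp from the start (chromosome 3, 135352447 to 135352592). Both peaks lay outside repeats. Nfkb2, Rel and Relb had none. The neighbour of Rel, Pus10, had 2 peaks, the higher with a score of 41 at 1021 bp from its own start. The gap between the bodies of Rel and Pus10 was 3971 bp, which is not the distance of a peak to Rel.

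Of the TNF-induced protein genes, Tnfaip3 encodes A20, a ubiquitin-editing enzyme that shuts down NF-kappaB signalling. Its peak scored 37 and stood 17726 bp from the start, 3225 bp beyond the length of the gene, in a SINE element (chromosome 10, 18713971 to 18714116). Tnfaip6, which encodes a hyaluronan-binding secreted protein, had an intergenic peak of score 33, 10470 bp upstream and outside repeats. Tnfaip8, a regulator of cell death, had a peak of score 41, 37198 bp upstream in intron 37 of 42 of Dmxl1. None of the 3 peaks lay inside the gene it was listed under.

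The listed gene was often not the gene that held the peak. Of the 10 intron peaks of the family, 7 lay in an intron of another gene (95% Wilson interval 39.7 to 89.2%), beside 30.2% (28.8 to 31.7) of the 3866 intron peaks of the list whose host transcript was found. The hosts were Rcor3, Dmxl1, Fyn, Gm16364, Srgap2, Relch and Tnfrsf8. Of the genes listed for these 10 peaks, only Nfkb1, Tnfsf13b and Traf5 each held 1 of them, and Rela had its promoter peak and Tnfrsf10b the peak annotated to its transcription end. Among intron peaks 10 kb or more from the listed start, 1 of 8 of the family (12.5%, 2.24 to 47.1) and 65.6% of the list lay in the listed gene. The other family peaks there were the same 7, and all 7 lay upstream of the listed start. Upstream lay thus 7 of 10 family intron peaks, beside 20.7% (19.5 to 22.1) of the list's. The 7 are also among the 14 family peaks upstream of the start, so these shares are not separate observations. Counted by the gene to whose body, promoter or transcription end a peak was annotated, 6 of the 64 family genes (9.38%, 4.37 to 19.0) had one, beside 13.6% of all protein-coding genes. The median length of the 64 genes was 20545 bp and that of all protein-coding genes 17169 bp. Among genes with a peak the order was the other way, with 29772 bp for the family and 37983 bp for all, and what part length had in this was not tested.

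Peak scores of the family ran from 20 to 58, while the list reached 43344, with 370 of its peaks above 58. The median score was 37 (95% order-statistic interval 33 to 41), beside 33 in all 10402 peaks. Scores above 33 were held by 12 of 22 peaks (54.5%, 34.7 to 73.1), beside 5197 of the 10402. A score of 50 or more was held by 3 peaks (13.6%, 4.75 to 33.3), beside 8.88% of the list. By gene, 4.69% of the family had such a peak, beside 2.6% of all protein-coding genes, and 10.9% had one of 40 or more, beside 12.4%. Most scores fell on a few values, with 73.5% of the list on 5 of them, and the least width of 146 bp was held by 15 of 22 family peaks beside 71.9% of the list. The score 26, held by 11.2% of the list, was held by no family peak. Scores of 58 and 20 were held by 3 and 2 family peaks, beside 3.91% and 0.961% of the list. These single scores were picked after their values were seen.

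**Figure D4:**
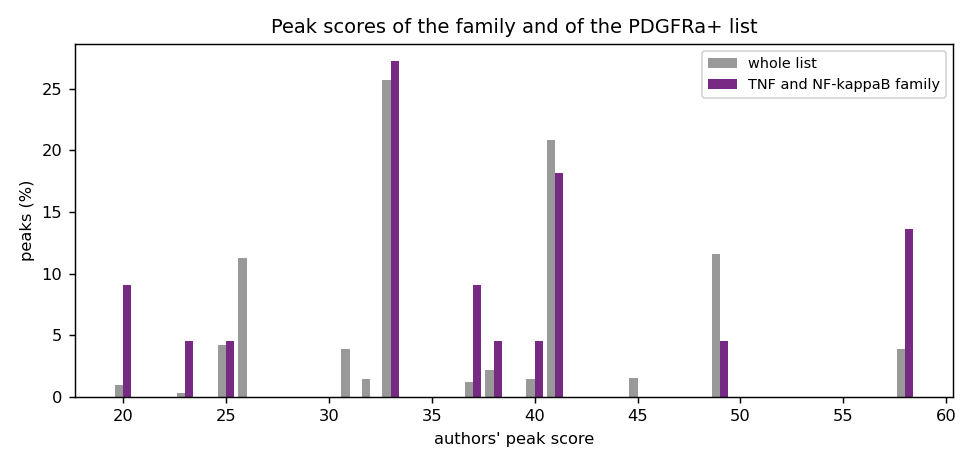
Percent of peaks (vertical axis) at each value of the authors' score (horizontal axis) in the whole PDGFRa+ list (grey) and among the 22 family peaks (purple), for scores up to 58 held by more than 100 list peaks or by a family peak. The family has 6 peaks at 33, 4 at 41 and 3 at 58, scores held by 25.7%, 20.8% and 3.91% of the list.

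Repeats held 11 of the 22 family peaks (95% Wilson interval 30.7 to 69.3%), beside 38.1% of the list. SINE elements held 4 (18.2%, 7.31 to 38.5), beside 6.93% of the list, and DNA transposons 2 (9.09%, 2.53 to 27.8), beside 1.30%. These list shares lay below the family's intervals, which cover counting error only and not the choice among the repeat classes compared. For all repeats the list's 38.1% lay within the family's interval. LTR elements held 3 (13.6%, 4.75 to 33.3), beside 10.2%. A simple repeat held 1 (4.55%, 0.807 to 21.8), beside 1.37%. LINE elements, the main class in the list with 16.9% of its peaks, held 1 (4.55%, 0.807 to 21.8). Satellite repeats held none, beside 0.375% of the list. The median score was 41 (95% order-statistic interval 33 to 58) for the 11 family peaks in repeats and 33 (20 to 41) for the 11 outside. These intervals overlap, and the list's medians of 33 and 35 lay within them. Family genes with a peak outside repeats numbered 10 (15.6%, 8.71 to 26.4), beside 16.3% of all protein-coding genes. Of the 19 members, 3 had 2 peaks, and 4.69% of the 64 genes thus had at least 2, beside 7.4% of all protein-coding genes.

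The wider pathway list of 46 genes outside the naming rule had a peak in 13 genes (28.3%, 17.3 to 42.5), again beside 22.5% of all protein-coding genes. Fas, the death receptor of the superfamily, had a promoter peak scoring 42 that was centred 5 bp from the start and a second peak of score 33 at 46910 bp. The promoter peak reached from 79 bp before to 90 bp after the start. The list's positions for Fas were shifted against the promoter table by 74490 bp, as were 7 of 8 peaks of other genes within 2 Mb, so the start site is the same. Fadd, the adaptor that links Fas to caspases, had a peak of score 32 in its intron, 698 bp from the start. Nfkbie, an inhibitor of NF-kappaB, had one of score 33 in intron 1 of 5 at 2045 bp. These 3 were the pathway genes with a peak within 3 kb (6.52%, 2.24 to 17.5), beside 3.39% of all protein-coding genes.

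The highest score of the pathway list was 67, for a peak 68614 bp upstream of Tank, a TRAF-binding regulator, in a LINE element, and Tank had a second of score 33. The atypical inhibitor genes Nfkbiz and Nfkbid had peaks too. Those of Nfkbiz scored 41 and 31 at 39598 and 89338 bp, and that of Nfkbid scored 33 at 4921 bp from the start, in its last exon. The kinase gene Map3k7 and its partner Tab2 each had an intergenic peak of score 33, at 30209 bp upstream and 53710 bp downstream. The ligand genes Cd70 and Eda and the receptor gene Relt scored 33, and the receptor gene Eda2r scored 25 at 202032 bp upstream. Nfkbia, the classical inhibitor gene known to be induced by glucocorticoids, had no peak, nor did Cd40, Ripk1, Tradd or Chuk, which are named after their values were seen.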

How the data were processed

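GR chromatin immunoprecipitation was measured in differentiated CD137+ and PDGFRa+ adipose progenitors, with 1 immunoprecipitate and 1 input each. Per the submitters' processing notes, FastQC, Bowtie2, MACS2, SAMtools and bedtools 2.17.0 were used with the mm10 build, with no role or threshold given. For read depth and the use of the inputs, nothing is given in the sources used here. The authors deposited a PDGFRa+ list with a whole-number score per peak, of unstated scale, and a distance to the nearest start site, negative upstream. They also deposited a CD137+ gene table with a peak signal of unstated unit. Annotations and nearest genes are the authors'.

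Members were matched by gene name, and names and lengths came from the RefSeq gene table of GRCm38.p6, where 6070 of 6081 Entrez identifiers were found. The list's positions are on another build: start sites implied by the peaks lay within 1 kb of the gene's start in that table for 3 of 22 family peaks. They are printed as deposited and none was converted. Strands the promoter table lacks were taken from the shift of nearby peaks. Apart from the part of the Fas peak inside its promoter window, the sequence under the peaks was not analysed here. A transcript named in an annotation was matched to its gene to find the host of a peak. The members, the lists and the rule for named genes were chosen with earlier results of these data known. The rule named members with a peak within 3 kb or in a promoter, exon or transcription end, the 10 highest scores, the most peaks, all Nfkb, Rel and Ikbk genes, all Traf and Birc genes with a peak, Tnf and Tnfrsf9, and pathway genes with a peak.

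No test was made, since no group had a replicate. Shares have 95% Wilson intervals and medians binomial order-statistic intervals (Python 3.11.15, pandas 2.3.3, scipy 1.17.1), and both cover counting error only. Alternatives were score minimums of 40 and 50, distance limits of 100, 20 and 3 kb, and removal of repeat peaks. Others were the genes named Tnf, Tnfsf or Tnfrsf alone, autosomes and X, and synonyms.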

Additional observations from a re-analysis of the deposited data

How the results depend on the processing

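With a score of 40 or more, 9 peaks, 7 members (10.9% of the family) and 4 pathway genes remained. A score of 50 or more left 3 peaks, 3 members (4.69%) and 1 pathway gene, with a median score of 58 and 66.7% of the peaks intergenic. Within 20 kb there were 11 peaks, 10 members (15.6%) and 5 pathway genes. Within 3 kb there were 3 peaks, 3 members (4.69%) and 3 pathway genes, with a median distance of 1992 bp, 66.7% of the peaks in introns and 0 intergenic. Both shares of 66.7% rest on 3 peaks. Among all 22 family peaks 45.5% were intergenic and 45.5% in introns (26.9 to 65.3 each), beside 56.3% and 37.3% of the list. Without repeat peaks there were 11 peaks, 10 members (15.6%) and 7 pathway genes. The genes named Tnf, Tnfsf or Tnfrsf alone gave 11 peaks and 10 members. These were 30.3% of the genes so named, beside 29.7% of the whole family and 22.5% of all protein-coding genes. Superfamily genes with other names, such as Fas and Fasl, were not in this count. Each of these settings leaves fewer peaks or genes by construction. With the limits of score and distance the background shares fell too. They were 12.4% of protein-coding genes at a score of 40 or more, 2.6% at 50 or more and 11.2% within 20 kb. Of the 69 values under alternatives, 42 stayed equal or moved by less than their counting interval or 1.5 times, and 27 moved by more. Because the 42 include values that a setting left unchanged, they do not measure how stable the results are. The limit of 100 kb left 10 pathway genes in place of 13 and changed no family value, and restriction to autosomes and X and matching through synonyms changed no value. The median distance was 37198 bp at a score of 40 or more and 44375 bp at 50 or more, in place of 22200 bp. Counting a peak annotated to a gene for that gene, and intergenic peaks still for the nearest gene, a setting chosen after seeing the data, gave 16 peaks in 14 genes (21.9%) with a median score of 35. No paired analysis was possible because each group has 1 library and no test was made. The unknown depth and the single library set the limit of all these values, and with 22 peaks a share moves by 4.55 percentage points per peak.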
